A study of Oryza sativa Japonica Group with 6 samples.

Results

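Gibberellin (GA) 2-oxidases were examined in young rice panicles as 8 gene loci chosen by identifier, *OsGA2ox1*, *OsGA2ox3*, *OsGA2ox4*, *OsGA2ox5*, *OsGA2ox6*, *OsGA2ox8*, *OsGA2ox9* and *OsGA2ox10*, out of 42189 genes with deposited values. Messenger RNA of panicles taken before heading was sequenced from 3 libraries of NIL-*hfr131* and 3 libraries of 187R. NIL-*hfr131* is a single near-isogenic line that carries the *hfr131* allele of *OsBRI1*, the brassinosteroid (BR) receptor gene, on a fragment of the long arm of chromosome 1 from the wild rice *Oryza longistaminata*. That allele has a deletion in the promoter and an amino acid change in the kinase domain, and other wild-rice alleles may lie on the same fragment. 187R is the *indica* restorer rice that served as recurrent parent and carries the *HFR131* allele, and both lines had the label natural for treatment. The comparison asks which genes differ in level between a line with reduced BR response and its parent. The labels call the libraries biological replicates but do not say whether these are separate plants or pools.

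GA 2-oxidases are dioxygenases that hydroxylate GA at carbon 2 and so end its activity as a growth hormone or keep a precursor from becoming active. Excess activity of a GA 2-oxidase is known to dwarf rice plants, and BR and GA together promote cell elongation.

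Expression levels are given in TPM, a relative unit in which reads are divided by gene length and every library has the same total. Levels can thus be set beside each other between genes, whereas between libraries a level also depends on all other transcripts measured. Of the 8 genes, 5 had a mean of at least 1 TPM over the 6 libraries and were tested together with all other genes above that level, 21531 in total, by limma on log2(TPM + 1). Differences are NIL-*hfr131* minus 187R on that log2 scale, on which the difference of a weakly expressed gene is understated. A gene was called when its Benjamini-Hochberg adjusted *P* over all tested genes was under 0.05. The sequencing depth cannot be read from TPM values, so counting error is unknown and the spread between libraries is the measure of error. In whole panicles, fewer cells of a type and less RNA per cell cannot be told apart.

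Marker genes of the labelled tissue were expressed in every library, and so were those of green tissue. All 9 floral organ identity genes on a panicle marker list had 28.6 to 790 TPM in every library, and the 5 genes of the anther tapetum summed to 1508 to 2103 TPM in NIL-*hfr131* and 1728 to 1925 TPM in 187R. The 5 green-tissue genes summed to 883 to 1441 TPM in NIL-*hfr131* and 1290 to 1398 TPM in 187R. Of them, 2 Rubisco small subunit loci were called higher in NIL-*hfr131* (log2 differences 1.65 and 1.61). The remaining Rubisco locus had 0.16, and the light-harvesting loci LOC_Os01g41710 and LOC_Os09g17740 had -0.33 and -0.14, none of them called. LOC_Os01g41710, at 735 to 1280 TPM, made up most of the sum. The 2 meiocyte genes summed to 24.0, 20.9 and 34.3 TPM in NIL-*hfr131* replicates 1, 2 and 3, and to 32.9 to 33.3 TPM in 187R. Their median log2 difference was -0.32 with all libraries and -0.52 without NIL-*hfr131* replicate 3. Without that library their adjusted p was 0.0523 and 0.0526 (limma), so neither was called. The 5 tapetum genes then ran from -0.12 to 0.50, with 0 called. The meiocyte sum was thus below 187R in NIL-*hfr131* replicates 1 and 2, and not in replicate 3. The 4 GA 2-oxidases given here as lower are named because they were below 187R in every NIL-*hfr131* library. Their place in replicate 3 was therefore set by that choice and cannot be held against the meiocyte sum. Whether these stage markers and the GA 2-oxidases are linked was not tested. NIL-*hfr131* replicate 3 also had the lowest sums of the green-tissue and tapetum genes. Of these lists, none had a gene at 0 in any library, and the part of cell make-up in the differences given here was not tested. NIL-*hfr131* replicate 3 stood apart from the other 5 libraries, with Pearson correlations across genes of 0.916 to 0.937 with them, whereas those had 0.982 to 0.991 with one another. Results are therefore also given without it. *OsBRI1* itself was measured at 68.7, 71.5 and 117 TPM in NIL-*hfr131* and 63.5, 58.7 and 66.7 TPM in 187R (log2 difference 0.40, adjusted p = 0.685, limma). Without NIL-*hfr131* replicate 3 its log2 difference was 0.15 (adjusted p = 0.466, limma).

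The 8 GA 2-oxidase genes reached at most 8.67 TPM, and *OsGA2ox3* and *OsGA2ox9* made up most of their summed level in both lines. Any GA 2-oxidase gene outside these 8 was not examined. Together the pair held 66.0%, 69.3% and 70.7% of the summed level of the 8 genes in NIL-*hfr131* replicates 1, 2 and 3, and 65.5%, 65.1% and 65.0% in 187R replicates 1, 2 and 3. *OsGA2ox1* followed, and *OsGA2ox10*, *OsGA2ox6* and *OsGA2ox8* were between 0.258 and 1.86 TPM. *OsGA2ox4* and *OsGA2ox5* were at or near 0 in both lines.

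**Figure D1:**
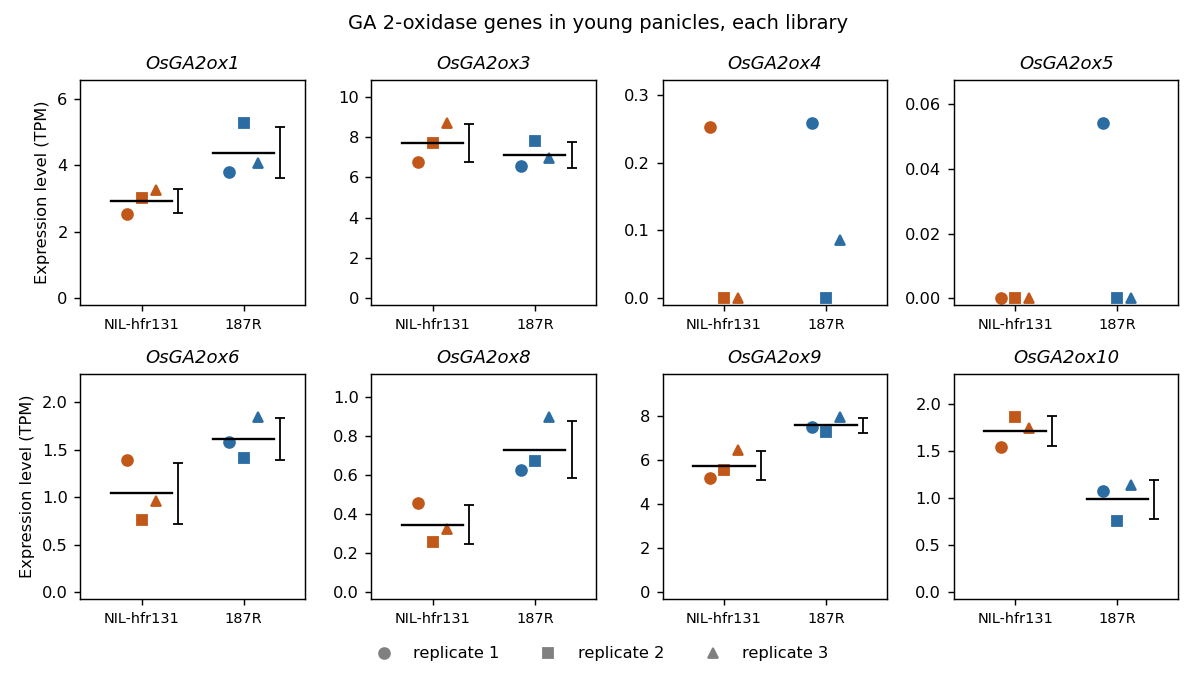
Expression level in TPM of each GA 2-oxidase gene (vertical axis, own scale per panel) in NIL-*hfr131* and 187R. Symbols are single libraries, horizontal lines are means and bars are SD (n = 3 libraries per line), left out for *OsGA2ox4* and *OsGA2ox5*, which were listed at 0 in 3 and 5 libraries. *OsGA2ox1*, *OsGA2ox6*, *OsGA2ox8* and *OsGA2ox9* were lower, and *OsGA2ox10* higher, in every NIL-*hfr131* library than in any 187R library.

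None of the 5 tested genes was called, in either direction, and the background was 0.307% of all tested genes called. At an unadjusted *P* under 0.05, 3 of the 5 passed (*OsGA2ox1*, *OsGA2ox9* and *OsGA2ox10*), against 8.36% of all tested genes. That count changed as single libraries were left out, and so did the count over all tested genes. Without 187R replicates 1, 2 and 3 it was 2, 0 and 1 of the 5. Over all genes it was then 1124 of 21588, 1018 of 21566 and 899 of 21526. Without NIL-*hfr131* replicates 1, 2 and 3 it was 2, 0 and 3 of the 5. Over all genes it was then 2670 of 21546, 1299 of 21567 and 3144 of 21276. The lines did not overlap in 4 of the 5, while 18.5% of all tested genes showed no overlap. Of these 4 genes, 3 were lower and 1 higher in NIL-*hfr131*, and over all tested genes 9.96% were lower and 8.59% higher without overlap. With the genes under 1 TPM included, the count without overlap was 5 of 8, against 16.1% of all 30519 genes above 0 in any library. The median absolute log2 difference was 0.37 over the 5 genes and 0.19 over all tested genes, and the median signed difference was -0.35 over the 5 genes and 0.05 over all tested genes. These are counts over 5 genes that were singled out with earlier results of the same libraries known, and 3 libraries against 3 cannot give a two-sided exact permutation *P* under 0.1 for any 1 gene. They also include *OsGA2ox10*, which passed the 1 TPM minimum only through NIL-*hfr131* (mean 1.72 TPM, against 0.987 TPM in 187R).

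*OsGA2ox10* (LOC_Os05g11810, chromosome 5) was the only gene of the 8 with a higher level in every NIL-*hfr131* library. It was measured at 1.54, 1.86 and 1.74 TPM in NIL-*hfr131* replicates 1, 2 and 3, and at 1.07, 0.752 and 1.14 TPM in 187R replicates 1, 2 and 3. The lowest NIL-*hfr131* library was thus 0.405 TPM above the highest of 187R. The ratio of the mean levels was 1.74, whereas the log2 difference after adding 1 to the TPM was 0.45 with a 95% confidence interval of 0.07 to 0.84 (adjusted p = 0.523, limma). Without NIL-*hfr131* replicate 3 the log2 difference was 0.45 (adjusted p = 0.246, limma), so that library did not set its size. The gene averaged 1.72 TPM in NIL-*hfr131* and 0.987 TPM in 187R, so it passed the 1 TPM minimum only through the line in which it was high. The study singled out this gene on these same libraries, so its difference is not independent evidence.

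*OsGA2ox1* (LOC_Os05g06670, chromosome 5) is known from rice shoot tips, and its ectopic expression dwarfs the plant. Its level was 2.53, 3.00 and 3.24 TPM in NIL-*hfr131* replicates 1, 2 and 3, and 3.80, 5.26 and 4.07 TPM in 187R replicates 1, 2 and 3. Every NIL-*hfr131* library was below every 187R library, by at least 0.560 TPM, and 187R replicate 2 was the highest of all. The mean was 33.2% lower in NIL-*hfr131*, with a log2 difference of -0.45 (95% confidence interval -0.85 to -0.05, adjusted p = 0.551, limma). Leaving out 187R replicate 2 gave a difference of -0.33, and leaving out NIL-*hfr131* replicate 3 gave -0.51.

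*OsGA2ox9* (LOC_Os02g41954, chromosome 2) showed the widest gap between the lines in TPM. It was at 5.19, 5.57 and 6.48 TPM in NIL-*hfr131* replicates 1, 2 and 3, and at 7.51, 7.28 and 7.96 TPM in 187R replicates 1, 2 and 3. The highest NIL-*hfr131* library, replicate 3, was 0.806 TPM below the lowest of 187R. The mean was 24.2% lower in NIL-*hfr131* and the log2 difference was -0.35 (95% confidence interval -0.69 to -0.02, adjusted p = 0.577, limma). Without NIL-*hfr131* replicate 3 the difference was -0.43 and its adjusted p was 0.114, the lowest that any of the 5 genes reached in any fit, still above the threshold.

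*OsGA2ox6* (LOC_Os04g44150, chromosome 4) is a GA 2-oxidase gene whose overexpression is known to dwarf rice plants. Its level was 1.39, 0.765 and 0.963 TPM in NIL-*hfr131* replicates 1, 2 and 3, and 1.58, 1.41 and 1.84 TPM in 187R replicates 1, 2 and 3. The lines were only just separate, since NIL-*hfr131* replicate 1 lay 0.0194 TPM below 187R replicate 2. The log2 difference of -0.37 had a 95% confidence interval of -0.79 to 0.06, which includes 0 (adjusted p = 0.658, limma).

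*OsGA2ox8* (LOC_Os05g48700, chromosome 5) had the lowest levels of the genes found in all 6 libraries and was under the 1 TPM minimum for the test. It was listed at 0.454, 0.258 and 0.321 TPM in NIL-*hfr131* replicates 1, 2 and 3, and at 0.624, 0.670 and 0.895 TPM in 187R replicates 1, 2 and 3. Each NIL-*hfr131* library was below each 187R library, and the mean was 2.12-fold lower, the largest ratio among the genes found in all 6 libraries. When genes under the minimum were included in the fit, the log2 difference was -0.36 (adjusted p = 0.361, limma), which was not a call either.

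*OsGA2ox3* (LOC_Os01g55240, chromosome 1) is known to be raised by high doses of BR in rice seedlings, and it did not separate the lines. It was at 6.77, 7.70 and 8.67 TPM in NIL-*hfr131* replicates 1, 2 and 3, and at 6.54, 7.80 and 6.95 TPM in 187R replicates 1, 2 and 3. The ranges overlapped, and NIL-*hfr131* replicate 3 was the highest library. The log2 difference was 0.10 with a 95% confidence interval of -0.25 to 0.46 (adjusted p = 0.775, limma), and it was 0.03 without that library. The interval shows how large a difference these libraries leave possible, so an equal level in the lines is not shown. This is the only gene of the 8 on the chromosome of *OsBRI1*, with a locus number 3190 above it, and whether the introgressed fragment reaches it was not tested.

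Transcripts of the remaining pair were close to absent. *OsGA2ox4* (LOC_Os05g43880, chromosome 5) was listed at 0.253, 0 and 0 TPM in NIL-*hfr131* replicates 1, 2 and 3, and at 0.258, 0 and 0.0853 TPM in 187R replicates 1, 2 and 3. *OsGA2ox5* (LOC_Os07g01340, chromosome 7) was listed at 0 in all 3 NIL-*hfr131* libraries and at 0.0541, 0 and 0 TPM in 187R. With values of this size the lines could not be compared for either gene, and a listed 0 can also be a failed estimate.

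**Figure D2:**
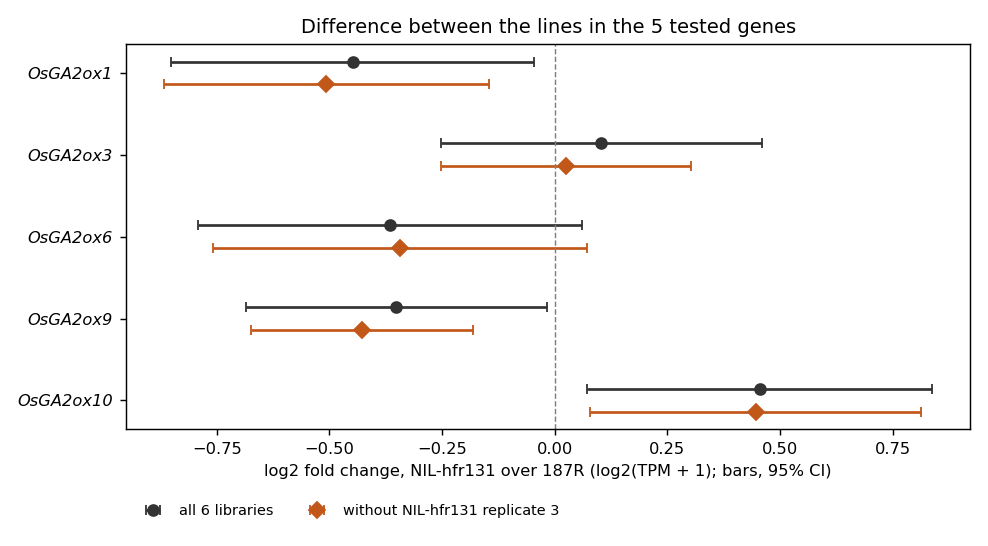
Log2 difference between NIL-*hfr131* and 187R on the log2(TPM + 1) scale (horizontal axis) for the 5 tested genes, from limma with all 6 libraries (circles) and without NIL-*hfr131* replicate 3 (diamonds). Bars are 95% confidence intervals for single genes, not adjusted for the number of genes tested. The differences were -0.45, 0.10, -0.37, -0.35 and 0.45 for *OsGA2ox1*, *OsGA2ox3*, *OsGA2ox6*, *OsGA2ox9* and *OsGA2ox10* with all libraries, and none passed the adjusted threshold.

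The order of the genes by level differed in places between the lines. In NIL-*hfr131*, *OsGA2ox3* was first, with every library above those of *OsGA2ox9*, then came *OsGA2ox1*, *OsGA2ox10*, *OsGA2ox6* and *OsGA2ox8*. None of these 6 overlapped with its neighbour in the order. In 187R, *OsGA2ox9* and *OsGA2ox3* were first and their ranges overlapped, so their order there was not beyond the spread. *OsGA2ox1* came next, then *OsGA2ox6*, which was separate from both its neighbours, and then *OsGA2ox10* and *OsGA2ox8*, which overlapped.

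Ratios taken within a library do not depend on how libraries are scaled to each other, and those described here were chosen after the levels were seen, so they carry no test. The level of *OsGA2ox9* relative to *OsGA2ox3* was 0.767, 0.724 and 0.747 in NIL-*hfr131* replicates 1, 2 and 3, and 1.15, 0.934 and 1.15 in 187R replicates 1, 2 and 3. The level of *OsGA2ox10* relative to *OsGA2ox1* was 0.610, 0.620 and 0.538 in NIL-*hfr131* and 0.282, 0.143 and 0.280 in 187R. This separation followed from the levels, as *OsGA2ox10* was higher and *OsGA2ox1* lower in every NIL-*hfr131* library than in any 187R library. In both ratios NIL-*hfr131* replicate 3 lay close to the other libraries of its line. Ratios to weaker genes spread more. *OsGA2ox10* relative to *OsGA2ox6* was 1.11, 2.44 and 1.81 in NIL-*hfr131* and 0.677, 0.533 and 0.617 in 187R. Relative to *OsGA2ox8* it was 3.40, 7.22 and 5.43 in NIL-*hfr131* and 1.72, 1.12 and 1.27 in 187R.

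The summed level of the 8 genes was 18.1, 19.2 and 21.4 TPM in NIL-*hfr131* replicates 1, 2 and 3, and 21.4, 23.2 and 22.9 TPM in 187R replicates 1, 2 and 3. The means were 19.6 ± 1.68 TPM in NIL-*hfr131* and 22.5 ± 0.939 TPM in 187R (SD, n = 3 libraries per line), a difference of -2.95 TPM. NIL-*hfr131* replicate 3 and 187R replicate 1 were nearly equal in this sum. Sums over chosen genes are a description and were not tested.

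**Figure D3:**
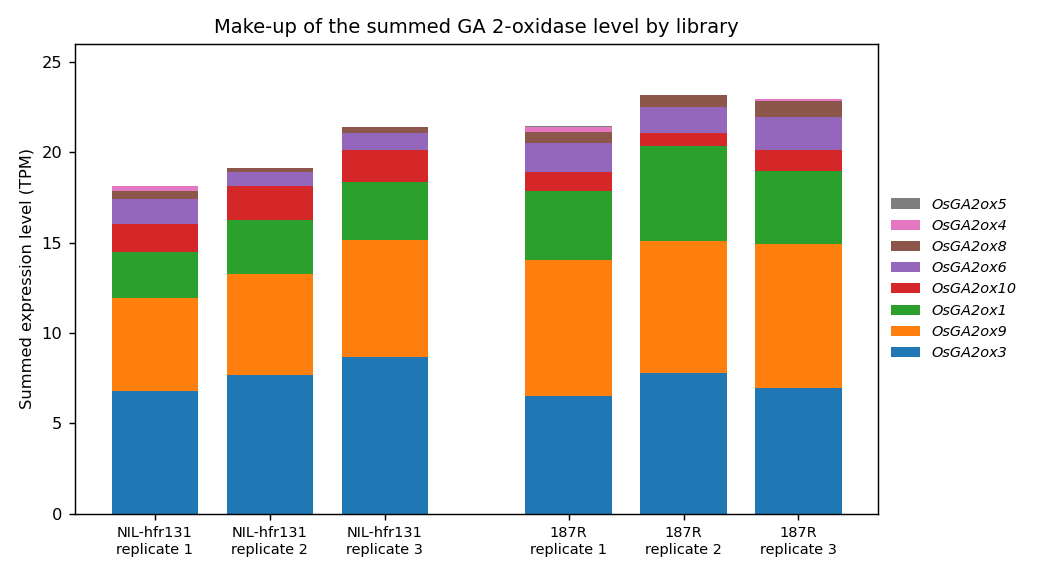
Summed level in TPM of the 8 GA 2-oxidase genes (vertical axis, from 0) in each library, divided by gene. The sums were 18.1 to 21.4 TPM in NIL-*hfr131* and 21.4 to 23.2 TPM in 187R, and *OsGA2ox3* and *OsGA2ox9* formed the 2 lowest and largest segments in every library.

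Without NIL-*hfr131* replicate 3, 384 of 21276 genes (1.8%) were called, and 0 of the 5 GA 2-oxidases.

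The loci next to the GA 2-oxidases were read for differences shared by a chromosome region. Within 500 locus numbers on either side, the median log2 difference of the tested neighbours was 0.10 over 32 genes around *OsGA2ox10* and 0.08 over 49 around *OsGA2ox1*. It was -0.005 over 51 neighbours of *OsGA2ox9*, -0.009 over 49 of *OsGA2ox6* and -0.06 over 64 of *OsGA2ox3*. Single neighbours ranged from -0.93 to 1.86. Called genes numbered 2 of 49 around *OsGA2ox1*, 1 of 51 around *OsGA2ox9* and 0 around the other 3, against 0.307% of all tested genes, and whether a region's genes share a difference was not tested.

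Other genes of the GA pathway were read from a list of 16 loci for enzymes of GA synthesis, a cytochrome P450 that inactivates GA by another reaction, and the perception and signalling of GA, among them the receptor and the DELLA repressor whose removal it triggers. All 16 were measured, 15 were tested, and 0 were called in either direction. By an unadjusted *P* under 0.05, 2 of the 15 passed, against 8.36% of all tested genes. Without NIL-*hfr131* replicate 3, 4 of the 15 passed, against 3144 of all 21276 genes tested in that fit. The median log2 difference was 0.05 (range -0.32 to 0.78) with all libraries and -0.06 without NIL-*hfr131* replicate 3. The lines did not overlap in 2 of the 15, against 18.5% of all tested genes. The first, LOC_Os07g07420 of the synthesis list, was at 13.0, 11.6 and 10.9 TPM in NIL-*hfr131* and 15.7, 13.9 and 15.3 TPM in 187R (log2 difference -0.32, adjusted p = 0.585, limma). The other, LOC_Os01g59660 of the signalling list, was at 18.6 to 25.1 TPM in NIL-*hfr131* and 8.77 to 17.9 TPM in 187R (log2 difference 0.78, adjusted p = 0.504, limma). KNOX homeobox proteins, of which a maize member is known to bind a GA 2-oxidase gene of maize, were represented by 2 loci. These summed to 111 to 131 TPM in NIL-*hfr131* and 120 to 124 TPM in 187R, with 0 called. LOC_Os03g51690 had a log2 difference of -0.12 with all libraries and -0.25 without NIL-*hfr131* replicate 3 (adjusted p = 0.200 without it, limma). LOC_Os07g03770 had 0.04 and 0.03 in the same order (adjusted p = 0.883 without it, limma).

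**Figure D4:**
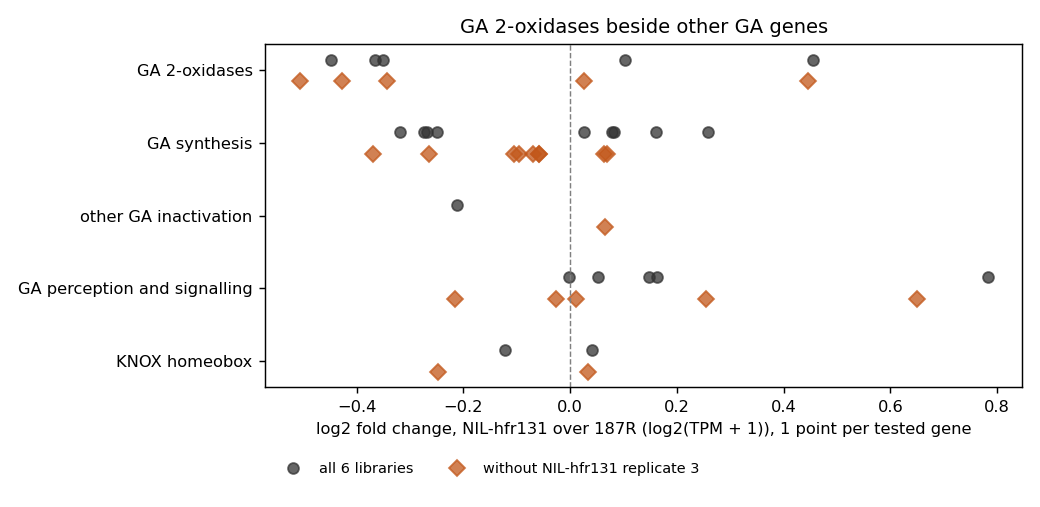
Log2 difference between NIL-*hfr131* and 187R on the log2(TPM + 1) scale (horizontal axis) for the 5 tested GA 2-oxidases and for tested genes of other GA lists, 1 point per gene. Circles are from all 6 libraries and diamonds are without NIL-*hfr131* replicate 3. No gene shown passed the adjusted threshold, and the 15 tested genes of GA synthesis, other inactivation, perception and signalling ran from -0.32 to 0.78 with all libraries.

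The genes most like a GA 2-oxidase over the 6 libraries were found by the root mean square difference of centred log2 values, a description over libraries that include NIL-*hfr131* replicate 3. For *OsGA2ox3*, the gene with the highest mean level, they were LOC_Os01g41950 and LOC_Os03g45400, at differences of 0.0221 and 0.0269 against a median of 0.242 over all tested genes. For *OsGA2ox10* they were LOC_Os11g45850 and LOC_Os04g26870, at 0.0544 and 0.0547 against a median of 0.325. Picked as the smallest differences over all tested genes, they lie below the median by selection, and shared regulation was not tested. The closest match of *OsGA2ox10*, LOC_Os11g45850, was at 2.78, 3.74 and 3.19 TPM in NIL-*hfr131* and 2.31, 1.67 and 2.22 TPM in 187R.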

How the data were processed

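Young panicles of each line gave 3 mRNA libraries, which were read on an MGI sequencer. The authors deposited TPM values for 42189 genes, which summed to 1000000 in each of the 6 libraries, although the methods name FPKM. The aligner, genome build, annotation and read filters are not given in the sources used here. The labels give the species as *japonica*, whereas 187R is described as *indica*. TPM keeps no sequencing depth, so no counting interval was computed. Reads shared between similar loci could not be examined.

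Genes with a mean of at least 1 TPM were compared on log2(TPM + 1) with limma 3.58.1 in R 4.3.3 (trend = TRUE, two-sided, Benjamini-Hochberg adjustment over 21531 genes). The fit was also run on simulated data with independent noise and changes larger than those of the GA 2-oxidases. That run does not show how smaller changes, or a library that stands apart, are handled. Summaries were made in pandas 2.3.3 and numpy 2.4.6 under Python 3.11.15 and figures with matplotlib 3.10.9. The fit was repeated with a replicate block, with each library left out, with quantile normalization or median-of-ratios factors, with a constant variance prior, with 0.1 added in place of 1, and with a minimum of 5 TPM or none. The named genes are the 8 members, *OsBRI1*, lists of GA and marker loci, and the 2 genes most like *OsGA2ox10* and like the member with the highest mean. The members and lists were chosen with earlier results of these data known. Identifiers in the lists rest on general knowledge of rice loci, as the RefSeq gene table held 0 of the deposited identifiers, and no sequence or genome position is given.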

Additional observations from a re-analysis of the deposited data

How the results depend on the processing

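No GA 2-oxidase gene was called by limma under any of the 13 alternatives, and the 62 refits of a tested gene had adjusted p from 0.114 to 0.956. All 62 kept the gene's direction, which was largely fixed beforehand. For the 4 of the 5 genes without overlap between the lines, leaving out a library could not reverse it. The filter, prior and block settings left the log2 difference of every gene unchanged. The log2 differences ranged from -0.56 to -0.33 for *OsGA2ox1*, 0.02 to 0.18 for *OsGA2ox3*, -0.62 to -0.27 for *OsGA2ox6*, -0.43 to -0.29 for *OsGA2ox9* and 0.37 to 0.76 for *OsGA2ox10*. The difference of the summed level was -3.87 to -2.23 TPM when each library was left out, -3.61 TPM with median-of-ratios factors and -3.57 TPM without *OsGA2ox3*. The number of genes called over the whole table, 66, was 13 to 384 when each library was left out (13 without 187R replicate 2 or 3, 14 without 187R replicate 1, 15 and 28 without NIL-*hfr131* replicates 2 and 1, 384 without NIL-*hfr131* replicate 3), and the cause was not tested. With the replicate number as a block it was 16 genes. The deviations of same-numbered libraries had correlations of -0.21, 0.06 and 0.09, so the numbers were not taken as pairs. The count of GA 2-oxidases at an unadjusted *P* under 0.05 was 0 of 5 with the block, 0 of 2 with a minimum of 5 TPM and 3 of 8 with no filter. Over all tested genes it was 1300 of 21531, 1320 of 16121 and 2473 of 30519, in the same order. Levels under 1 TPM, as in *OsGA2ox4*, *OsGA2ox5* and *OsGA2ox8*, are limited by a depth that is unknown.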
